A study of Mactra quadrangularis with 2 samples.

Results

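Cytochrome P450 unigenes of families 1, 2 and 3 of the clam Mactra veneriformis (organism label Mactra quadrangularis) were described in its digestive gland after exposure to BDE-47, a brominated diphenyl ether once used as a flame retardant. They comprised 9 of 124752 unigenes, a unigene being a transcript contig assembled without a genome. They were taken because their nearest database protein was a P450 of family 1, 2 or 3, and both contigs of cluster CL3645, named cytochrome P-450 and P450 2J6, were included. In the deposited tables their IDs end in _All, an ending given below only beside each unigene's fragment counts. Contigs sharing a CL number form a cluster of related contigs. The 9 unigenes came from 6 clusters and 2 single unigenes, which together held 22 contigs, so 13 contigs were relatives outside the set.

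Clams of the control group were held for 3 days in aerated seawater at 16 °C and salinity 31 with the solvent DMSO at 0.05% by volume. Clams of the BDE-47 group were held alike, with BDE-47 added to a nominal 5 µg/L and an equal amount of the solvent. The study describes 3 replicates of 30 clams per group, with the glands of 30 clams pooled before RNA extraction. The deposited tables hold 1 poly(A) RNA library per group, 15.6 M counted fragments for control and 15.9 M for BDE-47, so no difference below has a replicate check and no p-value is given. Intervals in parentheses are 95% counting intervals of these 2 libraries and do not cover variation between animals or pools.

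Cytochrome P450 enzymes are haem proteins that insert an oxygen atom into fat-soluble molecules, using electrons passed on from NADPH by a reductase. In vertebrates, family 1 enzymes oxidise flat aromatic compounds and are switched on through the aryl hydrocarbon receptor. Family 2 enzymes of mammals handle drugs, steroids and fatty acids, and family 3 enzymes accept a wide range of drugs and bile acids. In mammals P450 enzymes also hydroxylate BDE-47. The digestive gland of bivalves is the organ of intracellular digestion and a main site of foreign compound metabolism.

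The names were supported to different degrees by the deposited database matches. The Nr, Swiss-Prot and KEGG matches named the same P450 family for 6 of the 9 unigenes, 3 in family 2 and 3 in family 3. None of these 6 belonged to family 1. The 1A1 name of CL14307.Contig1 rested on its Nr match to an oyster (Crassostrea gigas) protein alone, with a bit score of 120.6, and it had no Swiss-Prot, COG or KEGG match. CL2818.Contig1 matched a 1A1-like protein of an acorn worm in Nr with a score of 78.6, the steroid enzyme CYP17A1 of a frog in Swiss-Prot, and P450 subfamily 2J in KEGG. The family 1 label is therefore not borne out by a second database for either unigene, and both are called by their Nr names below. For CL14307.Contig1, its being a P450 of any family also rests on the Nr match alone. CL3645.Contig2 had P450 matches in all 3 protein sources, while its nucleotide match was to a calsequestrin-1-like transcript of a pufferfish.

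The matches had further features in common. The oyster gave the best Nr match for 4 of the 9, and the other best matches lay in a sea urchin, an acorn worm, a hamster, a zebra finch and a tilapia. The P450 domain group COG2124 was assigned to 5 of the 9, out of 8 such unigenes in the authors' called table. KEGG entry K07424, P450 subfamily 3A, was assigned to 3 called unigenes, all of them in the set. Lengths ran from 222 to 5383 bases, with 4 unigenes of at least 1500 bases and 5 under 700 bases. The short ones can hold only part of a P450 reading frame, and the tables do not show whether several stem from 1 gene.

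Names were given in the deposited tables only to unigenes that the authors called, 14.1% of all, with an absolute log2 ratio of at least 1 and an FDR of at most 0.001. All 9 unigenes were in that table, so their being called follows from how they were found and is not a result. By the rule of size used here, 8 of the 9 were higher in the BDE-47 library and 1 was lower. The rule asked for an absolute log2 ratio of at least 1 on the log2(FPKM + 0.1) scale, at least 20 fragments over both libraries, and a counting interval of the ratio that excludes 1. It was passed upwards by 8.89% and downwards by 11.6% of all unigenes. Among described unigenes called by the authors and past the rule, 36.1% were higher. The median log2 ratio of the 9 was 1.26, and that of all described unigenes called and past the rule was -1.21. The size of both follows from the call, so only their signs can be set side by side. The median over the 89164 unigenes with at least 20 fragments, called or not, was -0.11. In the authors' deposited table the FDR of the 9 ran from 6.23e-95 to 0.000282, from a test of the same 2 libraries.

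**Figure D1:**
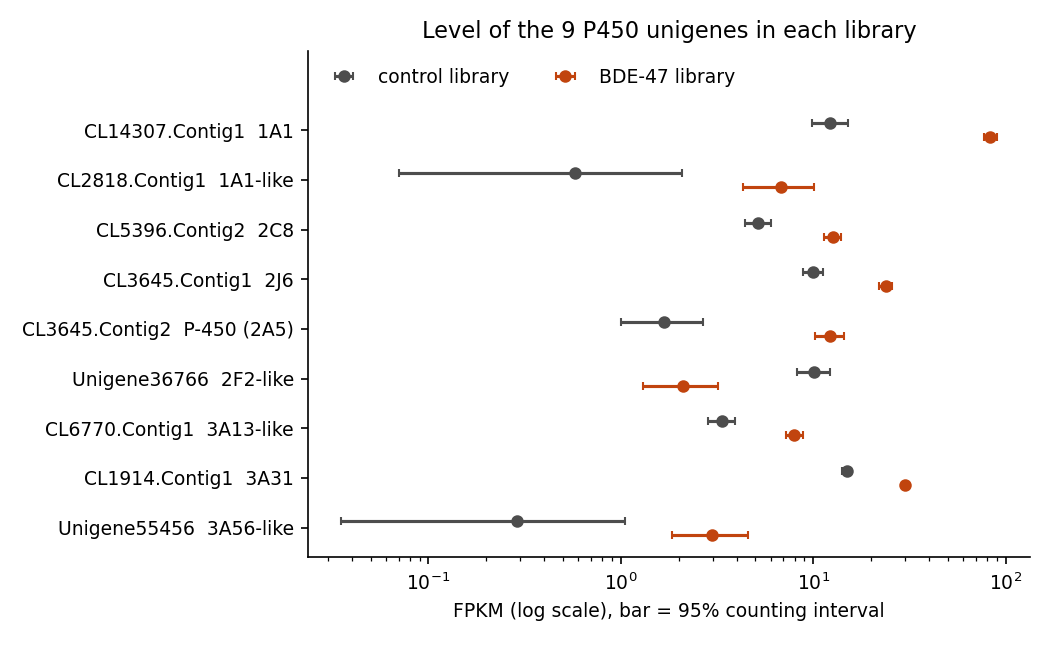
Level of each of the 9 P450 unigenes in the control (grey) and BDE-47 (orange) library, in FPKM on a log axis, with 95% counting intervals as bars and the Nr name beside each ID (the Swiss-Prot name in brackets for CL3645.Contig2). The orange point lies to the right of the grey point in 8 of 9 rows, and Unigene36766 is the exception, at 10.1 FPKM in control and 2.10 in BDE-47.

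Levels are given as the authors' FPKM, which scale counted fragments to unigene length and library total. In the control library the highest level was that of the 3A31 unigene CL1914.Contig1, at 14.9 FPKM (14.1 to 15.7). It was followed by the 1A1 unigene CL14307.Contig1 at 12.3 FPKM (9.86 to 15.1), the 2F2-like Unigene36766 at 10.1 (8.20 to 12.3) and the 2J6 unigene CL3645.Contig1 at 9.96 (8.83 to 11.2). The intervals of these last 3 overlapped one another, and that of CL14307.Contig1 also overlapped that of CL1914.Contig1. The 2C8 unigene CL5396.Contig2 had a level of 5.18 FPKM (4.42 to 6.04) and the 3A13-like CL6770.Contig1 one of 3.36 (2.85 to 3.93). CL3645.Contig2 had 1.68 FPKM (0.999 to 2.66), CL2818.Contig1 had 0.577 (0.0699 to 2.08) and the 3A56-like Unigene55456 had 0.290 (0.0352 to 1.05). These 3 were the lowest, and each overlapped its neighbour in the order.

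In the BDE-47 library the order was different. CL14307.Contig1 was highest at 83.4 FPKM (77.0 to 90.2), above 99.4% of all unigenes, against 92.0% in control. CL1914.Contig1 followed at 30.0 FPKM (28.8 to 31.1) and CL3645.Contig1 at 23.9 (22.1 to 25.7). CL5396.Contig2 at 12.6 FPKM (11.4 to 13.9) and CL3645.Contig2 at 12.2 (10.2 to 14.4) did not differ beyond their intervals. Neither did CL6770.Contig1 at 7.98 (7.19 to 8.83) and CL2818.Contig1 at 6.78 (4.34 to 10.1). Lowest were Unigene55456 at 2.99 FPKM (1.85 to 4.56) and Unigene36766 at 2.10 (1.30 to 3.20), whose intervals overlapped. Unigene36766 thus went from above 89.5% of all unigenes in the control library to above 35.4% in the BDE-47 library.

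The unigenes with family 1 names were both higher in the BDE-47 library, but their clusters differed in direction. The 1A1 unigene CL14307.Contig1_All, named for the classic aromatic compound oxidase of vertebrates, had 90 fragments in control against 625 in BDE-47. Its ratio of fragments per library total was 6.80-fold towards BDE-47 (5.44 to 8.58). It is 470 bases long and held 1.66% of its cluster's fragments in control (1.34 to 2.04, exact Clopper-Pearson interval) and 4.19% in BDE-47 (3.87 to 4.52).

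Most of cluster CL14307 lay in its longer contigs. CL14307.Contig2, of 2012 bases, had 2313 fragments in control against 10334 in BDE-47, a 4.37-fold ratio (4.18 to 4.58), and was also called by the authors. Its Nr match was an oyster protein listed as hypothetical, with no P450 name. CL14307.Contig3, of 1548 bases, had 3011 and 3963 fragments, a 1.29-fold ratio (1.23 to 1.35) that did not pass the rule. The intervals of the 3 contigs did not overlap one another. Contig2 made up 42.7% of the cluster in control and 69.3% in BDE-47, and Contig3 made up 55.6% and 26.6%. The cluster sum was 5414 fragments in control against 14922 in BDE-47, a 2.70-fold ratio (2.62 to 2.78), and it passed the rule.

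CL2818.Contig1_All, the other unigene with a 1A1-like name, had 2 fragments in control and 24 in BDE-47. The ratio was 11.8-fold with a wide interval of 2.92 to 103. This contig is 222 bases long and held 0.0727% of its cluster's fragments in control and 1.35% in BDE-47. Nearly all of cluster CL2818 was CL2818.Contig4, of 2222 bases, which had 2733 fragments in control and 1730 in BDE-47 and was 1.61-fold lower (1.52 to 1.71). CL2818.Contig3 had 10 and 19 fragments (1.86-fold, 0.823 to 4.48). CL2818.Contig2 had 6 and 5 fragments. With all 4 contigs summed, the cluster was 1.58-fold lower in BDE-47 (1.49 to 1.68), in the opposite direction to the named contig, and it did not pass the rule.

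Family 2 held unigenes that were higher and the 1 that was lower. The 2J6 unigene CL3645.Contig1_All, of a subfamily that includes arachidonic acid epoxygenases in mammals, had 281 fragments in control against 688 in BDE-47, a 2.40-fold ratio (2.08 to 2.76). CL3645.Contig2_All, the other contig of the cluster, had 18 and 133 fragments, a 7.24-fold ratio (4.41 to 12.6). Its Swiss-Prot match was mouse Cyp2a5, a coumarin 7-hydroxylase. Both contigs were higher, their intervals did not overlap, and the share of Contig2 in the cluster was 6.02% in control (3.61 to 9.35) and 16.2% in BDE-47 (13.7 to 18.9). The cluster sum, 299 fragments in control and 821 in BDE-47, was 2.69-fold higher (2.35 to 3.08) and passed the rule. CL3645 was the only one of the 6 clusters in which every contig passed the rule in the same direction. It was also the only one with all contigs in the set. Members were found among called unigenes, so that both contigs passed follows mostly from how they were found.

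The 2C8 unigene CL5396.Contig2_All, named for a drug and retinoid oxidase of humans, had 165 fragments in control against 409 in BDE-47, a 2.43-fold ratio (2.02 to 2.93). Its KEGG match was subfamily 2R, which includes the vitamin D 25-hydroxylase of vertebrates. The other contigs of cluster CL5396 also had point ratios above 1, none past the rule. CL5396.Contig1 had 52 and 80 fragments (1.51-fold, 1.05 to 2.18) and CL5396.Contig3 had 82 and 118 (1.41-fold, 1.05 to 1.89), long contigs with levels between 0.779 and 1.78 FPKM. CL5396.Contig4 had 6 and 16 fragments (2.61-fold, 0.971 to 8.15). Summed, the cluster had 305 fragments in control against 623 in BDE-47, a 2.00-fold ratio (1.74 to 2.30). That is at the threshold, and with the pseudocount its log2 ratio of 0.99 did not pass.

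The 2F2-like Unigene36766_All was the only one of the 9 that was lower. It had 99 fragments in control and 21 in BDE-47, 4.81-fold lower (2.98 to 8.12). Mouse Cyp2f2 is known as a lung enzyme that oxidises naphthalene. The Swiss-Prot match of this unigene was P450 2L1 of a spiny lobster, and its KEGG match was subfamily 2U. It is a single unigene of 628 bases, so no related contig could be added to it. Of unigenes with 100 to under 1000 fragments, 12.7% were lower and 8.64% higher by the same rule.

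In family 3, the 3A31 unigene CL1914.Contig1_All carried most fragments of the whole set. It had 1252 fragments in control against 2572 in BDE-47, a 2.01-fold ratio (1.88 to 2.15), just inside the rule, which it no longer passed with a pseudocount of 1 FPKM. Of unigenes with 1000 to under 10000 fragments, 7.37% were higher and 8.55% lower. Of the fragments of all 9 unigenes it held 60.7% in control and 52.8% in BDE-47. It is 5383 bases long, the longest of the 9. CL1914.Contig2, of 648 bases and without a description, went the other way, with 112 fragments in control and 33 in BDE-47, 3.47-fold lower (2.33 to 5.28). The cluster sum was 1.87-fold higher (1.75 to 2.00) and did not pass the rule.

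The 3A13-like CL6770.Contig1_All, whose nearest Swiss-Prot entry is mouse Cyp3a11, a main drug-oxidising enzyme of mouse liver, had 155 fragments in control and 376 in BDE-47. Its ratio was 2.38-fold (1.96 to 2.88). It was not the main contig of its cluster. CL6770.Contig4, of 3848 bases, had 622 and 512 fragments and was 1.24-fold lower (1.10 to 1.40), and CL6770.Contig2 had 74 and 73. CL6770.Contig3 had 77 and 111 fragments (1.41-fold, 1.05 to 1.91). CL6770.Contig5 had 16 fragments in control and 0 in BDE-47, at least 5.45-fold lower when 3 fragments are set as the floor in that library. The share of Contig1 was 16.4% in control (14.1 to 18.9) and 35.1% in BDE-47 (32.2 to 38.0), while that of Contig4 was 65.9% and 47.8%. The cluster sum, 944 against 1072 fragments, was 1.11-fold higher (1.02 to 1.21) and did not pass the rule.

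The 3A56-like Unigene55456_All had 2 control fragments and 21 BDE-47 fragments, 10.3 times as many per library total (2.51 to 90.5). Its Swiss-Prot match was CYP3A10 of the hamster, a lithocholate hydroxylase that acts on a bile acid. With 23 fragments it lay close to the minimum of 20, where 14.7% of unigenes with 20 to under 100 fragments were higher by the rule. Like CL2818.Contig1, it was nearly undetected in the control library, and its level there was not distinguishable from that of CL2818.Contig1 at this depth.

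**Figure D2:**
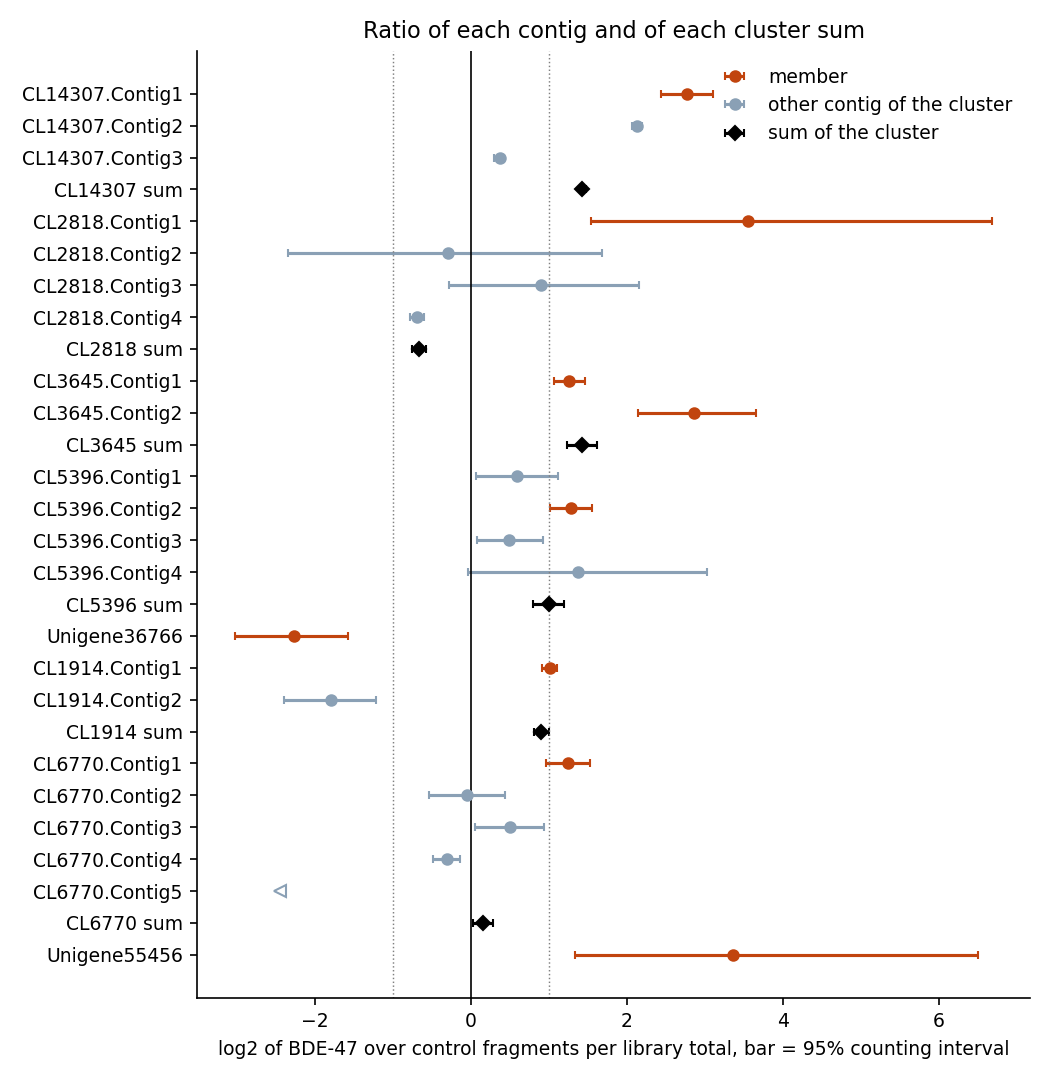
Log2 ratio of BDE-47 over control for all 22 contigs of the 6 clusters and 2 single unigenes, with 95% counting intervals, the 9 members in orange, their related contigs in blue-grey and the cluster sums as black diamonds. Dotted lines mark a 2-fold ratio, and the open triangle is the bound for CL6770.Contig5 at 0 fragments in BDE-47. In CL14307, CL2818, CL5396, CL1914 and CL6770 the sum lies closer to 0 than the member does, that of CL2818 below 0, and in CL3645 it lies between the members.

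The related contigs outside the set were mostly not past the rule. Of the 13 related contigs, 1 was higher by the rule (CL14307.Contig2), 1 was lower (CL1914.Contig2) and 11 did not pass it, 2 of which had under 20 fragments. With contigs summed, 3 of 8 clusters and single unigenes were higher (CL14307, CL3645 and Unigene55456), 1 was lower (Unigene36766) and 4 did not pass. Over the whole series 7.34% of clusters and single unigenes were higher and 9.32% lower. Of the 6 clusters alone, 2 were higher, against 12.6% of the 6135 clusters of several contigs that held an authors' call. Contigs past the rule in both directions were found in 1 of the 6, CL1914, and in 21.8% of those 6135 clusters. The sources used here do not say how fragments that fit several contigs were assigned, so a shift between contigs of a cluster cannot be told apart from a change of 1 transcript.

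**Figure D3:**
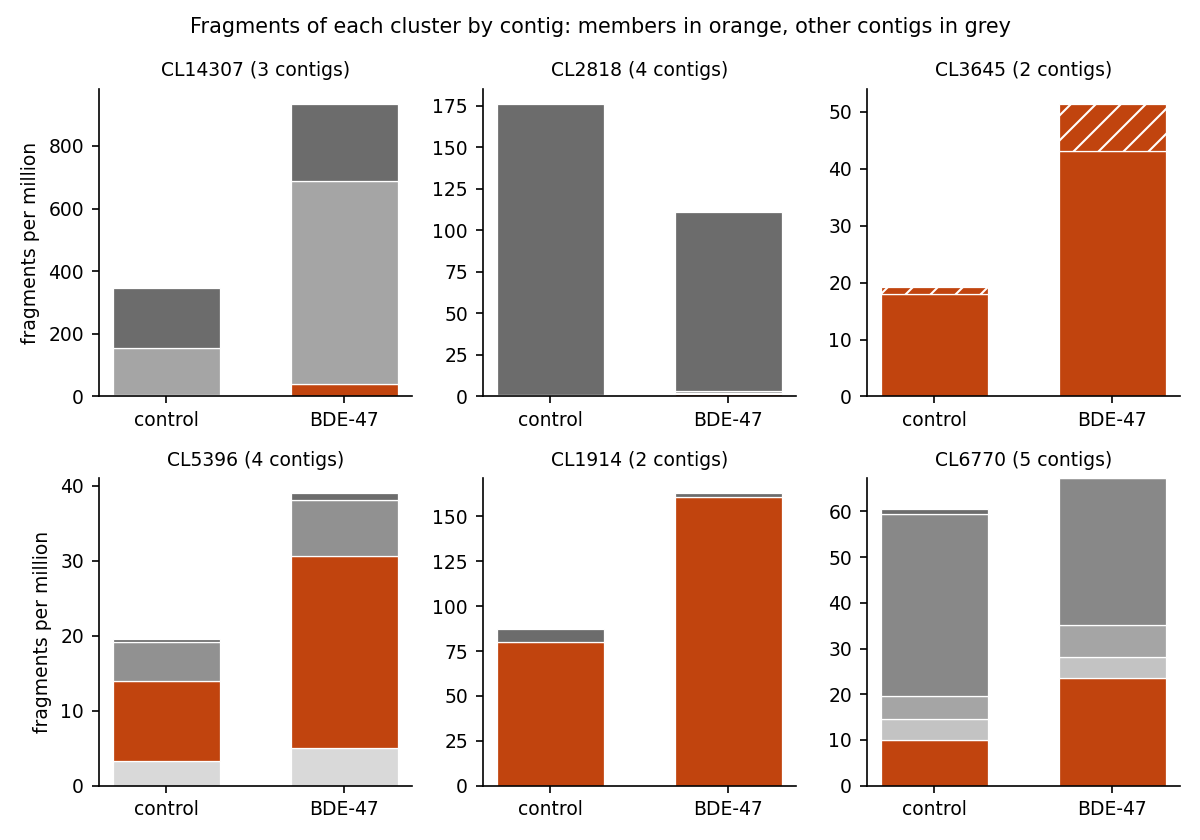
Counted fragments of the 6 clusters in each library, scaled to library total (axis in fragments per M) and stacked by contig from Contig1 at the bottom, members in orange (CL3645.Contig2 hatched) and related contigs in grey, each panel with its own axis from 0. Members make up all of CL3645, most of CL1914, 54.1% to 65.7% of CL5396 and 16.4% to 35.1% of CL6770. They are a small part of CL14307, which is larger in BDE-47, and of CL2818, which is smaller.

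Summed over all 9 unigenes, 2064 fragments were counted in control against 4869 in BDE-47, a 2.31-fold ratio (2.19 to 2.43). The 9 took 0.0132% of the control library and 0.0305% of the BDE-47 library. By name, the 2 family 1 unigenes summed to a 6.91-fold ratio (5.55 to 8.69), the 4 of family 2 to 2.18-fold (1.97 to 2.41) and the 3 of family 3 to 2.06-fold (1.94 to 2.20). The family 1 and family 3 ratios are mostly those of 1 unigene each. CL14307.Contig1 gave 90 of 92 family 1 fragments in control and 625 of 649 in BDE-47. CL1914.Contig1 gave 1252 of 1409 family 3 fragments in control and 2572 of 2969 in BDE-47. The intervals of families 2 and 3 overlapped. With all contigs of their clusters added, the ratios were 2.00-fold (1.95 to 2.06), 2.04-fold (1.86 to 2.24) and 1.57-fold (1.49 to 1.65). The first of these joins CL14307, which was higher, with CL2818, which was 1.58-fold lower.

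The sum over all 22 contigs was 11178 fragments in control against 21863 in BDE-47, a 1.92-fold ratio (1.87 to 1.96). Cluster CL14307, whose P450 name rests on the Nr match of CL14307.Contig1 alone, decided this value, with 5414 fragments in control and 14922 in BDE-47. Without it, the remaining 19 contigs had 5764 and 6941 fragments, a 1.18-fold ratio (1.14 to 1.22), as computed after the data were seen. Since these are bulk libraries of a whole organ, more cells of a type and more RNA per cell cannot be told apart.

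**Figure D4:**
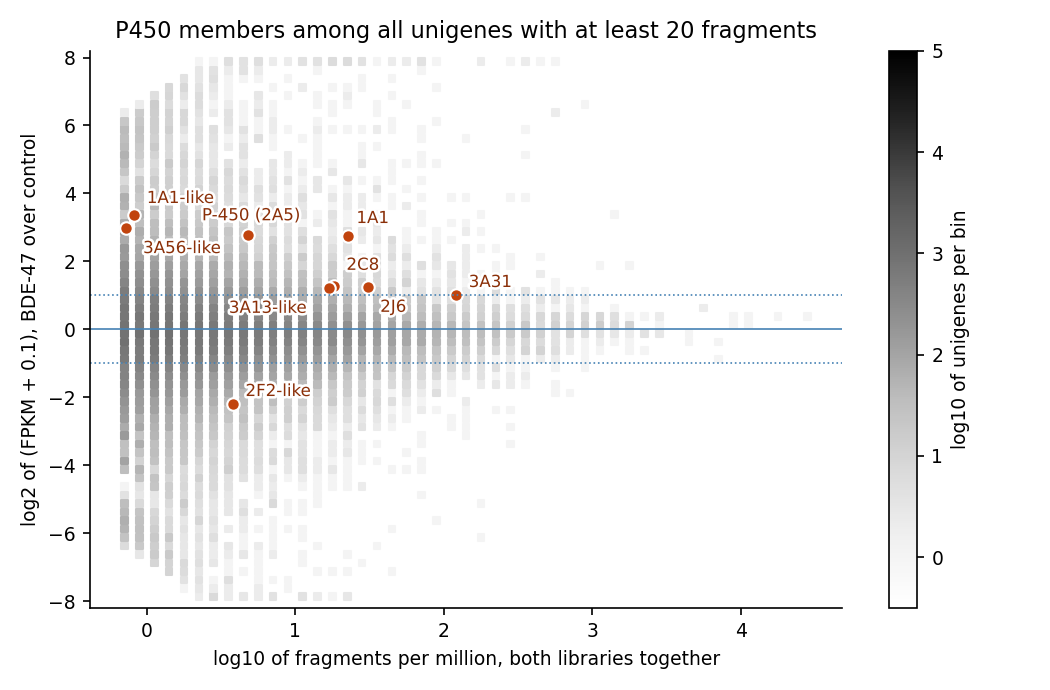
Log2 ratio of FPKM + 0.1 against the level in both libraries together (log10 of fragments per M) for the 89164 unigenes with at least 20 fragments (grey bins, darker with more unigenes, ratios beyond 8 drawn at 8) and the 9 members (orange, with Nr names). The members span the range of levels from near the minimum (1A1-like and 3A56-like) to 3A31, and 8 lie at or above the dotted line at 1.

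Other P450 unigenes in the authors' called table were split in direction. Of 4 named for other families, 2 were higher and 2 lower, and their fragments summed to 632 in control and 456 in BDE-47. P450 10 (Unigene55238), named for a snail enzyme, had 38 and 165 fragments and was 4.25-fold higher (2.97 to 6.22). P450 20A1 (Unigene36555), an orphan enzyme of vertebrates, was 2.56-fold lower (2.15 to 3.06), and the family 4 unigene Unigene32197 was 2.33-fold lower (1.66 to 3.32). The other higher one, named after its values were seen, was Unigene55080 (24 and 59 fragments), whose Nr name is a family 4 P450 and whose Swiss-Prot match is not a P450. By KEGG alone, 2 further unigenes were P450 family 4. These were Unigene41953, with 2 fragments in control and 41 in BDE-47, and Unigene31139, with 87 and 17. Whether families 1 to 3 and the others differ in direction was not tested.

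The partners of P450 enzymes gave few called unigenes. Of 3 matched as electron donors, 2 were higher and 1 lower, but 1 of the higher ones is a succinate dehydrogenase cytochrome b560 (CL6442.Contig1) caught by chance on its name. The other 2, chosen for mention after their values were seen, were an adrenodoxin-like unigene (Unigene20168, 16 fragments in control and 63 in BDE-47), of the mitochondrial electron chain to P450s, and cytochrome b5 (Unigene17714, 58 and 24), which passes electrons to microsomal P450s. Haem synthesis was represented by contigs of 5-aminolevulinate synthase, the first step of the haem pathway. CL14521.Contig3 was 3.25-fold higher (2.69 to 3.96) and CL14521.Contig1 was 2.63-fold lower (2.16 to 3.22). With the contigs of CL14521 summed the log2 ratio was 0.31, not past the rule, so here too the contigs of a cluster went opposite ways.

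The list of receptors and stress sensors, which in vertebrates include those that control P450 genes, gave 7 called unigenes, 5 higher and 2 lower. A receptor that was not called would carry no name here. None of the 7 was named as an aryl hydrocarbon receptor, and a link from any of them to the P450 unigenes was not tested. Of these, 6 were nuclear receptor contigs, 5 higher and 1 lower, in 2 clusters whose sums were both higher. The nuclear receptor 0B1 contig CL14432.Contig1 was 3.25-fold higher (2.99 to 3.54) and its sister CL14432.Contig2 was 2.08-fold lower (1.75 to 2.48), with a cluster log2 ratio of 1.20. The 0B1 name is from Nr, and the Swiss-Prot match of both contigs was COUP transcription factor 1. A contig of nuclear receptor family 1 (CL5608.Contig5), nearest to an insect ecdysone-induced protein, was 3.18-fold higher (2.43 to 4.20). The remaining one was a match to KEAP1 (CL18940.Contig1), the sensor that holds back the oxidative stress factor NRF2 in vertebrates, was 3.37-fold lower (2.17 to 5.39), with a cluster log2 ratio of -0.44.

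The steps before and after P450 oxidation were mixed. Other phase I enzymes gave 7 higher and 4 lower of 12, and with clusters summed 4 higher, 2 lower and 6 not past the rule. Among those with at least 100 fragments, a membrane amine oxidase (Unigene45746, 4.18-fold) and a unigene matching a zinc-binding alcohol dehydrogenase domain protein (Unigene41498, 2.79-fold) had the highest ratios, and a second amine oxidase (Unigene19315, 3.19-fold) and a fatty aldehyde dehydrogenase (CL19013.Contig2, 2.80-fold) were lower by the most. With its contigs summed, CL19013 had a log2 ratio of -0.4, not past the rule. Glutathione S-transferases gave 5 higher and 4 lower of 9, and with clusters summed 1 higher, 2 lower and 4 not past the rule. With the same minimum, the ends of that list were theta-1 contigs, CL14784.Contig2 at 4.17-fold higher and CL15690.Contig1 at 12.9-fold lower. The sigma class CL10806.Contig2 was 2.33-fold higher and the rho class Unigene12240 2.89-fold lower. CL14784.Contig1, also a theta-1 contig, was 2.03-fold lower (1.75 to 2.35). With contigs summed, CL14784 and CL10806 had log2 ratios of 0.79 and 0.63, neither past the rule.

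Glucuronosyl- and sulfotransferases, which attach a polar group to hydroxylated products, gave 6 higher and 1 lower of 7, all of them sulfotransferases, and with clusters summed 5 higher, 1 lower and 1 not past the rule. Sulfotransferase 1B1 (Unigene1497) was 7.07-fold higher (5.70 to 8.86) and an amine sulfotransferase (Unigene53011) 3.97-fold (2.41 to 6.83). ABC efflux pumps, which export conjugates and drugs, gave 1 higher and 7 lower of 8, and with clusters summed none higher, 5 lower and 3 not past the rule. The higher one, CL9585.Contig1, matched multidrug resistance-associated protein 5 and had 91 and 341 fragments, whereas multidrug resistance protein 1 (Unigene4274) was 3.53-fold lower (3.21 to 3.88) and Unigene72958 was 3.40-fold lower (2.48 to 4.75). Enzymes of eicosanoids, lipid signals that some family 2 P450s of mammals also act on, gave 2 higher and 4 lower of 6, and with clusters summed 1 higher, none lower and 5 not past the rule. Among these a leukotriene A4 hydrolase contig (CL5236.Contig3) was 2.68-fold lower and an allene oxide synthase-lipoxygenase contig (CL13962.Contig1) 2.65-fold lower, and a prostaglandin F synthase contig (CL592.Contig2) was 2.83-fold higher. Their cluster sums had log2 ratios of -0.93, -0.89 and 0.35, none past the rule. All these counts cover called and described unigenes only, and of those past the rule 36.1% were higher.

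The libraries also differed in markers of other tissues. The counts of all marker lists below stand beside the same share, 36.1% higher among called and described unigenes past the rule. Scaled to fragments per M counted, the called shell matrix unigenes, which belong to the mantle, summed to 136 in control and 3072.2 in BDE-47, with 14 of 18 higher and 3 lower. Without the PIF match Unigene56099 they summed to 135 and 1890.5.

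The digestive enzyme list, for the labelled tissue, had 21 of 39 unigenes higher and 13 lower, with a median log2 ratio of 2.09, yet its sum was 1336.3 in control and 856 in BDE-47. The cathepsin L-like contig CL2966.Contig2 decided that sum, with 17963 and 9135 fragments, and its cluster, at a log2 ratio of -0.32, did not pass the rule. Without it the list summed to 186 and 283, the opposite direction. Several of its members had 0 fragments in control, among them Unigene55748 (198 in BDE-47) and CL9824.Contig1 (73), trypsins with best matches in parasitic copepods, and the amylase Unigene55312 (120). The reverse was seen for CL3006.Contig4, with a trypsin as its Swiss-Prot match, at 210 fragments in control and 0 in BDE-47. Summed over its contigs, CL3006 went the other way, with 8834 fragments in control and 11975 in BDE-47. The list also caught neurotrypsin matches, which do not mark the gland.

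Gonad unigenes summed to 927 and 1010.6 (15 of 37 higher, 18 lower), and to 604 and 323 without the testis tubulin match Unigene11231, again the opposite direction. Much of the latter sum lay in vitelline membrane outer layer protein 1 matches. Those with most fragments were lower, Unigene27389 (2725 and 794 fragments), CL3834.Contig1 (2087 and 153) and Unigene24530 (1945 and 888). Others of that name with fewer fragments were higher, among them Unigene55916 (6 and 237). The list also caught a zinc finger protein and a phosphorylase kinase with testis in their names, so its sum does not stand for gonad alone. Vitellogenins with best matches in copepods (Unigene54733 and Unigene52417) had 0 fragments in control and 541 and 196 in BDE-47. The list held further vitellogenins of this kind, all at 0 in control, among them CL6390.Contig2 (463 in BDE-47). Several of them are counted among the 15 higher. Whether unigenes with best matches in copepods, here and among the trypsins, are clam transcripts was not tested. Unigenes of the muscle list summed to 319 and 166 (6 of 20 higher, 13 lower) and ciliary ones to 186 and 107 (2 of 15 higher, 12 lower). Blood cell ones summed to 509 and 862 (25 of 56 higher, 25 lower). None of these 3 sums changed direction without its most abundant unigene. Without CL3971.Contig1, however, the blood cell list summed to 494 and 641, and its median log2 ratio went from 0.11 to -0.98. That list was made up mostly of C1q, lectin, ficolin, integrin and disintegrin protease matches, so its sum does not stand for blood cells alone. The muscle list also caught matches named non-muscle myosin, so its sum does not stand for muscle alone. Among them were CL6896.Contig1 (1792 fragments in control and 847 in BDE-47), Unigene4094 (1077 and 240), CL1119.Contig1 (121 and 27) and, higher instead, Unigene40744 (28 and 174). The algal food list held 1 unigene, whose Swiss-Prot match is an animal enzyme (CL18190.Contig3, 156 and 57 fragments). Names exist for called unigenes only, so markers with like levels in both libraries are missing from these sums. The part of these tissue differences in the P450 ratios was not tested.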

How the data were processed

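Poly(A) RNA libraries of pooled digestive glands went through Illumina HiSeq sequencing, per the labels' protocols. The authors deposited raw fragment counts and FPKM values per unigene, with the library totals in the file headers. Their deposited log2 ratio, p-value and FDR compare the same 2 libraries, and their test is not named in any source used here. The authors' deposited bit scores and E values describe database matches. CASAVA 1.5 was used, per the submitters' processing notes. Which programs assembled the unigenes, mapped the reads and counted fragments is not stated there or in the labels.

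FPKM and the log2 ratio were recomputed from the counts to within rounding. Each fold divides the fragments per library total of BDE-47 by those of control (inverted where lower), with exact conditional binomial (Clopper-Pearson) intervals, and level intervals are exact Poisson intervals. They cover counting error only, since each group has 1 library. As no molecular identifiers are described, fragments copied from the same molecule cannot be told apart, so the intervals may be too narrow. Cluster FPKM used the mean contig length. Named are the 9 unigenes, all contigs of their clusters, and from each pathway list the 2 highest and 2 lowest past the rule with at least 100 fragments. The marker lists, to which the same rule was meant to apply, are given as sums. Unigenes named from them, P450 or electron donor unigenes under 100 fragments, and P450 unigenes found by KEGG alone were chosen after their values were seen, as were the sums without 1 unigene. The members and lists were chosen with earlier results of these data known. Python 3.11.15, scipy 1.17.1 and edgeR 4.0.16 (TMM factors only) were used. No sequence of a unigene was used here.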

Additional observations from a re-analysis of the deposited data

How the results depend on the processing

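The direction of each of the 9 unigenes held under TMM, median ratio and upper quartile scaling, which raised every log2 ratio by 0.06, 0.12 and 0.11. Shifts of that size could not have reversed unigenes called at an absolute log2 ratio of at least 1, so this is no check of the directions. The count of unigenes higher in BDE-47 moved from 8 to 7 with a pseudocount of 1 FPKM, to 6 with a minimum of 100 fragments, to 4 at an absolute log2 of at least 2 and, with contigs summed, to 3 of the 8 clusters and single unigenes, which hold 4 of the 9 unigenes. There CL2818.Contig1 reversed from 3.55 to -0.66. The count of cluster sums that were higher moved from 3 to 5 under median ratio and upper quartile scaling, with CL1914 and CL5396 at the threshold, and to 1 at an absolute log2 of at least 2. The log2 ratio of all 9 summed, 1.21, was 1.33 with the median ratio, 1.32 with the upper quartile, 0.94 over all contigs of the clusters, 1.47 without CL1914.Contig1 and 1.07 without CL14307.Contig1. The log2 ratio of all contigs, 0.94, was 1.00 with TMM, 1.06 with the median ratio, 1.05 with the upper quartile and 0.24 without cluster CL14307. Leaving out CL14307 or CL14307.Contig1 was chosen after the data were seen. Over the pathway lists together, 31 unigenes were higher and 26 lower. The lower count was 19 with TMM and 18 with median ratio or upper quartile scaling, while 31 stayed higher. With a pseudocount of 1 FPKM, 26 were higher and 15 lower, and at an absolute log2 of at least 2, 6 were higher and 1 lower. No paired analysis was possible because each group has 1 library, and for the same reason no replicate could be left out. Unigenes with 2 control fragments (CL2818.Contig1 and Unigene55456) have intervals too wide to place their folds.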
